A study of Homo sapiens with 4 samples.

Results

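Ribosome biogenesis is the nucleolar pathway in which RNA polymerase I transcribes the precursor of ribosomal RNA and assembly factors cut, modify and fold it into the small and large ribosomal subunits. The transcription factor MYC is known to drive many genes of this pathway, which is active in fast-growing tumour cells. The 46 genes described here are MYC, abundant nucleolar proteins, small nucleolar ribonucleoprotein (snoRNP) proteins, assembly factors of both subunits, and subunits and cofactors of RNA polymerase I. They were chosen by symbol from the 26336 genes of the deposited table. All 46 were found, and all passed the filter on low values. Messenger RNAs of these genes were measured, while ribosomal RNA itself was not analysed here.

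The cells were MDA-MB-231, an established line from a triple-negative breast cancer, with the genotype given as WT. For 24 h they received either DMSO, the vehicle (2 libraries), or W23-1006 (2 libraries). W23-1006 is a code-named compound, in the title an ALKBH5 inhibitor, ALKBH5 being an enzyme that removes m6A from RNA. The dose was not used here, since no label gave it. The labels do not say that replicates are separate cultures, and p-values then measure the spread between these libraries alone, which may be technical. In bulk RNA, fewer cells that express a gene and less RNA per cell cannot be told apart.

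Taken as reads, the deposited values gave 15161460 to 16497283 reads per library. All 8 markers fixed as expressed in MDA-MB-231, VIM and CD44 among them, were present at means of 90.1 to 1356 RPM (reads scaled to the library total). Of 7 fixed as low or absent, PGR and CDH1 had no row in the table, and the highest of the others reached 12.5 RPM. The summed leukocyte markers were at 0.561 to 0.727 RPM, those of endothelial and stromal cells at 14.3 to 17.2 and those of hepatocytes and neural cells at 7.52 to 10.9. Mitochondrial transcripts took 4.38% to 4.93% of a library.

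Differences in the pathway were small. DDX21, a nucleolar helicase, and WDR43, a small subunit factor, rose with the compound by 19.0% and 23.1%. BOP1, a large subunit factor, and TAF1C, a cofactor of RNA polymerase I, fell by 19.3% and 22.3%. These 4 genes had a limma adjusted p under 0.05 and the other 42 did not. That is 8.70% of the 46, against 2.15% of the 22486 genes tested and 3.84% of the 12585 whose mean log2 value was at least 5, a level that 45 of the 46 reached. By direction, 2 rose (4.35%, against 0.694% of all genes tested) and 2 fell (4.35%, against 1.46%). All 4 calls were lost when any one library was left out, as were all others in the table, and all 4 were lost after a correction for GC content that is described further on. The smallest two-sided exact permutation p in a design with 2 and 2 libraries is 0.333, so the limma values rest on variance shared across genes.

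Levels differed widely between the genes. Per length, in RPKM (reads scaled to gene length and library total) and averaged over the DMSO libraries, the level was highest for the nucleolar chaperone gene NPM1, at 366. The level of the nucleolin gene NCL was 162, that of DDX21 142 and that of NOLC1 109. The box C/D proteins came next, with FBL at 69.0, NOP56 at 64.1 and NOP58 at 59.4. MYC stood at 17.5, in place 32 of 46. The lowest levels were those of PPAN at 3.30, POLR1C at 2.69 and NOP2 at 0.396. The median level of the 46 was 24.6, against 1.56 over all genes tested. Together the 46 genes took 0.855% and 0.856% of the DMSO libraries, and 0.880% and 0.912% of those under W23-1006.

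**Figure D1:**
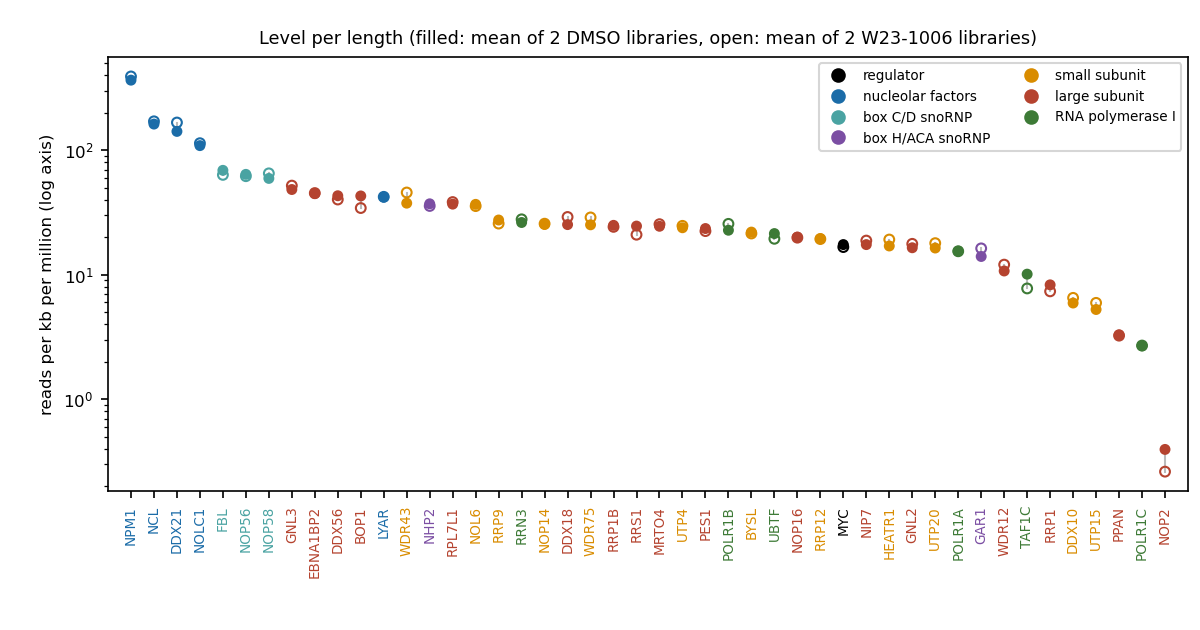
Level of each of the 46 genes in RPKM (reads scaled to gene length and library total, log axis), ordered by the DMSO mean, with filled points for the mean of 2 DMSO libraries and open points for the mean of 2 libraries under W23-1006, coloured by role. NPM1 leads at 366 and NOP2 is last at 0.396, and the filled and open points lie close together for most genes.

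Several counts are uncertain because exons are shared with another gene. Of the exonic bases of NOP2, a methyltransferase of large subunit ribosomal RNA, 54.4% lie in exons of AC006064.6 on the same strand. For PPAN, a large subunit factor, the share is 59.8%, and its main partner is the readthrough gene PPAN-P2RY11. Neither partner is among the genes deposited, so neither could be analysed here. Another 8 of the 46 (EBNA1BP2, HEATR1, NHP2, NIP7, NOP14, NOP16, POLR1C and RRS1) share at least 10% of their exonic bases with a gene on either strand, and 23 share none. For reads on opposite strands the strand setting of the counting matters, and it is not given in the sources used here.

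MYC, the regulator of the set, was at a normalised read count of 846 and 814 in DMSO and 765 and 836 under the compound. The groups overlapped. The log2 fold change was -0.053 (SE 0.083, limma adjusted p = 0.806), with a 95% interval from -0.23 to 0.12.

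Among the nucleolar proteins 1 of 5 rose and 0 fell. Over all genes tested 0.694% rose and 1.46% fell. Counts of 0 or 1 in this and the other roles are too small to be read as a result about the role. DDX21, an RNA helicase that acts in ribosomal RNA transcription and processing, had normalised read counts of 11558 and 10961 in DMSO and 13285 and 13509 under the compound. Both libraries under W23-1006 lay above both DMSO libraries. Its log2 fold change was 0.25 (SE 0.049, limma adjusted p = 0.0235). NPM1, the chaperone nucleophosmin, was at 21973 and 22313 in DMSO and 23173 and 24718 under the compound (0.11, SE 0.047, limma adjusted p = 0.241). NCL, the RNA-binding protein nucleolin, was at 18192 and 17404 in DMSO and 18555 and 19255 under the compound (0.087, SE 0.047, limma adjusted p = 0.384). For both the groups did not overlap, yet the difference missed the threshold. NOLC1, a chaperone of snoRNPs, had a log2 fold change of 0.078 without overlap, and LYAR, a nucleolar zinc finger protein, one of 0.021 with overlapping groups.

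Short sequences of DDX21, WDR43 and TAF1C are shown as examples of base composition. Further on the fold changes are set against the GC content of the longest transcript, not of these stretches. Each line gives 120 bases of the coding exon nearest the middle of the coding sequence, from the longest coding GENCODE 29 transcript on GRCh38, 5′ to 3′, with G and C in capitals.
DDX21: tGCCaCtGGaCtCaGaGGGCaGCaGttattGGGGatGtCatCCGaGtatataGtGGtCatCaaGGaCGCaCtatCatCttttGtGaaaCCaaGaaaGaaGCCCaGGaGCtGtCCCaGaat
WDR43: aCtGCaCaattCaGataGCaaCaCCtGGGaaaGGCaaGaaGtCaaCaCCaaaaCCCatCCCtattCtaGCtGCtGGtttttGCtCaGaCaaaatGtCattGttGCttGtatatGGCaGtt
TAF1C: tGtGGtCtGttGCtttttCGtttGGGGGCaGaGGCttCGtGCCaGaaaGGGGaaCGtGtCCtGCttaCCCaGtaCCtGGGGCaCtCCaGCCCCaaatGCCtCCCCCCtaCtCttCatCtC
The DDX21 stretch lies at chr10:68970216-68970335 on the plus strand, in exon 8 of 15. The WDR43 stretch lies at chr2:28925008-28925127 on the plus strand, in exon 8 of 18, and the TAF1C stretch at chr16:84181055-84181174 on the minus strand, in exon 11 of 14. Their GC content is 48.3%, 42.5% and 57.5%. Over the whole of these transcripts it is 41.1% for DDX21, 40.3% for WDR43 and 61.6% for TAF1C.

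In the box C/D snoRNP, which methylates ribosomal RNA, 0 of 3 proteins passed. The gene of the methyltransferase fibrillarin, FBL, was at 2445 and 2300 in DMSO and 2198 and 2208 under the compound (-0.11, SE 0.062, limma adjusted p = 0.423). The core protein gene NOP58 was at 3127 and 3075 in DMSO and 3243 and 3632 under the compound (0.15, SE 0.064, limma adjusted p = 0.258). The groups did not overlap for either gene, FBL being lower and NOP58 higher under the compound. Their partner NOP56 was at 5296 and 5640 in DMSO and 5126 and 5552 under the compound, with overlapping groups (-0.035, SE 0.058, limma adjusted p = 0.823).

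In the box H/ACA snoRNP, which converts uridine to pseudouridine, 0 of 2 proteins passed. GAR1 was at 483 and 425 in DMSO and 455 and 609 under the compound (0.22, SE 0.13, limma adjusted p = 0.422). NHP2 was at 882 and 893 in DMSO and 741 and 981 under the compound (-0.057, SE 0.11, limma adjusted p = 0.843). Both genes had overlapping groups, and replicate 2 of the compound was the highest library for each. RMND5B, whose exons cover 27.4% of those of NHP2 on the opposite strand, was at 788 and 741 in DMSO and 691 and 614 under the compound, and its part in the NHP2 values was not tested.

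Of 12 small subunit factors 1 rose and 0 fell, with a median log2 fold change of 0.10. WDR43, a subunit of the complex that first binds the nascent ribosomal RNA, had normalised read counts of 2612 and 2304 in DMSO and 2987 and 3056 under the compound. The groups did not overlap, and the log2 fold change was 0.30 (SE 0.067, limma adjusted p = 0.0363). Another subunit, WDR75, was at 2031 and 2007 in DMSO and 2302 and 2372 under the compound (0.21, SE 0.062, limma adjusted p = 0.0872). HEATR1, a large scaffold of the same complex, was at 2480 and 2397 in DMSO and 2818 and 2730 under the compound (0.19, SE 0.060, limma adjusted p = 0.118). Neither pair of groups overlapped, and neither gene passed. LGALS8, whose exons cover 23.2% of those of HEATR1 on the opposite strand, was at 1538 and 1522 in DMSO and 1854 and 1838 under the compound, and its part in the HEATR1 values was not tested.

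Other small subunit genes whose groups did not overlap were UTP15 (0.19) and UTP4 (0.066) of that complex, the helicase gene DDX10 (0.15) and the scaffold gene UTP20 (0.14), all higher, and RRP9 (-0.081), lower. NOP14 (0.035), RRP12 (0.0015), BYSL (-0.025) and NOL6 (-0.033) had overlapping groups. None of these 9 log2 fold changes passed.

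Of 17 large subunit factors 0 rose and 1 fell, with a median log2 fold change of -0.00031. BOP1 had normalised read counts of 2533 and 2518 in DMSO and 2108 and 1972 under the compound. Both libraries under W23-1006 lay below both DMSO libraries, and the log2 fold change was -0.31 (SE 0.063, limma adjusted p = 0.0263). BOP1 acts in a complex with PES1 and WDR12 that is needed for the maturation of large subunit ribosomal RNA. WDR12 was at 1485 and 1602 in DMSO and 1622 and 1884 under the compound, without overlap (0.18, SE 0.079, limma adjusted p = 0.259). PES1 overlapped (-0.054, SE 0.068). The values of this complex thus lay on both sides of 0.

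DDX18, a nucleolar helicase of the large subunit group, was at 3129 and 3154 in DMSO and 3549 and 3756 under the compound (0.22, SE 0.058, limma adjusted p = 0.0619). Its groups did not overlap, and in the authors' deposited table it had an adjusted p of 0.0242. The authors' deposited table called 5 of the 46 at an adjusted p under 0.05, namely DDX18, DDX21, WDR43, BOP1 and TAF1C. That is 10.9% of them, against 2.42% of all its 26336 genes, those of low level included. The share among better-expressed genes alone was not taken for the authors' values.

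Other large subunit genes whose groups did not overlap were the GTPase genes GNL3 (0.12) and GNL2 (0.12), NIP7 (0.12) and MRTO4 (0.070), all higher, and RRS1 (-0.21) and DDX56 (-0.087), both lower. RRP1 (-0.16), RPL7L1 (0.069), EBNA1BP2 (0.030), RRP1B (-0.027) and NOP16 (-0.00031) had overlapping groups. NOP2 was at 31.9 and 26.8 in DMSO and 25.8 and 13.5 under the compound, without overlap but at few reads (-0.62, SE 0.42, limma adjusted p = 0.507), and PPAN overlapped (-0.028, SE 0.18).

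Of 6 RNA polymerase I genes 0 rose and 1 fell. TAF1C, a subunit of the selectivity factor that brings the polymerase to the ribosomal RNA promoter, had normalised read counts of 847 and 937 in DMSO and 704 and 680 under the compound. The groups did not overlap, and the log2 fold change was -0.36 (SE 0.085, limma adjusted p = 0.0427). POLR1B, which encodes the second-largest subunit, was at 2442 and 2126 in DMSO and 2604 and 2581 under the compound (0.19, SE 0.070, limma adjusted p = 0.180). UBTF, a factor that keeps ribosomal RNA genes open, was at 2410 and 2332 in DMSO and 2237 and 2112 under the compound (-0.13, SE 0.063, limma adjusted p = 0.339). Neither pair of groups overlapped, POLR1B being higher and UBTF lower under the compound. The largest subunit gene POLR1A (0.013, SE 0.058) and POLR1C (0.036, SE 0.17) overlapped, and the initiation factor gene RRN3 (0.10, SE 0.064) did not.

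**Figure D2:**
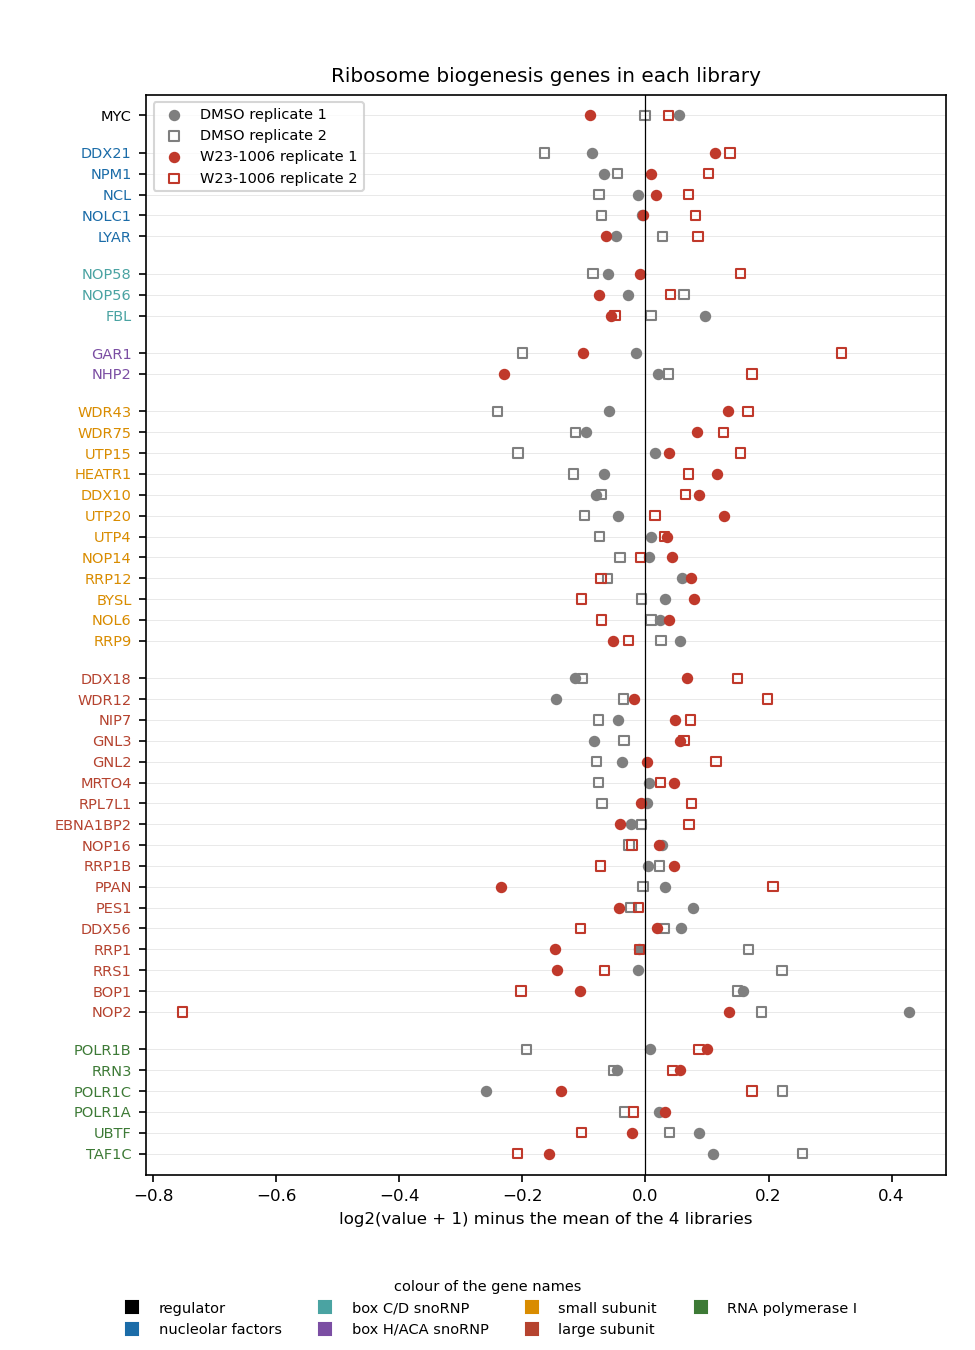
Each row is a gene, grouped and coloured by role, and each point is a library, placed by its log2(value + 1) minus the mean of the 4 libraries. DDX21 and WDR43 have both compound libraries to the right of both DMSO libraries, BOP1 and TAF1C have them to the left, and the points of MYC, NHP2 and GAR1 overlap.

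Over the 46 genes, both libraries under W23-1006 lay above both DMSO libraries for 20 (43.5%, against 22.1% of all genes tested and 29.2% of those at a mean log2 value of at least 5). They lay below both for 8 (17.4%, against 25.0% and 28.2%), and the groups overlapped for 18. Positive log2 fold changes numbered 28 of 46 (60.9%, against 48.7% of all genes tested). Among the genes at a mean log2 value of at least 5, 6321 of 12585 were positive. The median was 0.036, beside a median of -0.011 over all genes tested and 0.0010 over those 12585.

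The log2 fold changes of the pathway followed the GC content of the transcripts, as did those of the whole table. Across the 46 genes, which share the same 4 libraries, Spearman's rho was -0.88 and Pearson's r -0.77 (-0.86 without NOP2). Across 12582 genes of known GC content at or above a mean log2 value of 5 rho was -0.66 and r -0.61. These values describe genes of the same libraries and carry no test.

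The 15 genes lowest in GC (37.7% to 43.8%) all had a positive log2 fold change, with a median of 0.15, beside 0.12 for the 3379 genes of that range among those 12582. The 16 in the middle (44.8% to 54.1%) had a median of 0.051, beside -0.012 for 3955 genes. Of the 15 highest in GC (54.3% to 65.2%) 14 had a negative one, with a median of -0.087, beside -0.18 for 3296 genes. In single libraries the median log2 deviation of the 15 lowest was -0.067 and -0.085 in DMSO and 0.056 and 0.11 under the compound. That of the 15 highest was 0.057 and 0.030 in DMSO and -0.054 and -0.071 under the compound. In both sets the 2 libraries of a group thus lay on the same side of 0. Because these are deviations from the mean of the same 4 libraries, the opposite signs of the groups follow from the fold changes. Whether the trend arose in the cells or in the making of the libraries was not tested.

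Complexes were set against GC content in the same way. In the complex of WDR12, PES1 and BOP1 the GC content was 40.2%, 58.2% and 65.2%, and the log2 fold changes were 0.18, -0.054 and -0.31. For NOP58, NOP56 and FBL of the box C/D snoRNP the GC content was 41.3%, 50.9% and 54.3%, and the log2 fold changes were 0.15, -0.035 and -0.11. In both of these the log2 fold change was lower the higher the GC content. The same held for GAR1 (47.1%) and NHP2 (57.1%) of the box H/ACA snoRNP. So few genes can fall in this order by chance, and no pattern within complexes is read from it. The SE was 0.058 for NOP56 and 0.062 for FBL, so their order is uncertain. When a library was left out, GAR1 ran from 0.0055 to 0.43 and NHP2 from -0.26 to 0.14, while WDR12 stayed positive and BOP1 negative. In the small subunit complex the order was broken, with WDR75 (37.7%), UTP15 (38.7%), WDR43 (40.3%), HEATR1 (41.5%) and UTP4 (46.3%) at 0.21, 0.19, 0.30, 0.19 and 0.066. It was also broken among the RNA polymerase I genes, where RRN3 (41.5%) at 0.10 lay below POLR1B (44.8%) at 0.19, while TAF1C had the highest GC content (62.0% in its longest transcript) and the lowest log2 fold change.

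**Figure D3:**
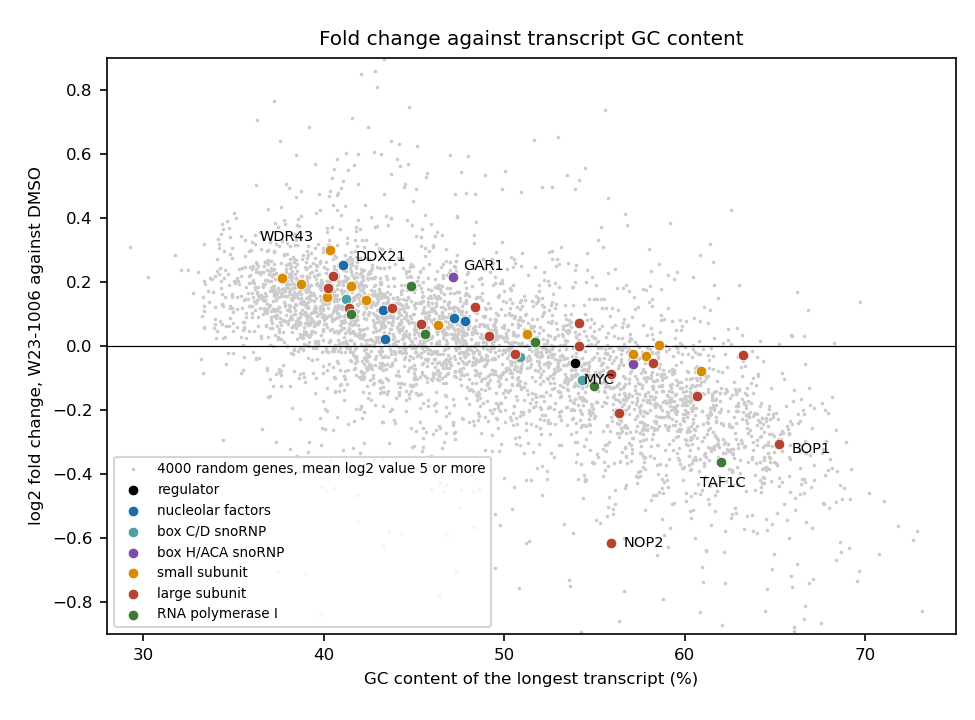
Log2 fold change of W23-1006 against DMSO plotted against the GC content of the longest transcript (%), for the 46 genes coloured by role and, in grey, for 4000 random genes with a mean log2 value of 5 or more (genes beyond the axes are not drawn). The coloured points fall with GC content, as the grey points do, from WDR43 (0.30) to TAF1C (-0.36) and BOP1 (-0.31). From low to high GC content their medians were 0.15, 0.051 and -0.087, beside 0.12, -0.012 and -0.18 for better-expressed genes. NOP2 lies apart at -0.62.

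After each library's trend with GC content was removed, 0 of the 46 genes passed (limma, 5 at an unadjusted p under 0.05), beside 0.0934% of all genes tested. Those 5 are 10.9% of the 46, against 7.25% of all genes tested. Without the correction 13 of the 46 (28.3%) had an unadjusted p under 0.05, against 16.7%. DDX21 went to a corrected value of 0.14 (SE 0.045, limma adjusted p = 0.422) on the log2 scale and WDR43 to 0.18 (SE 0.063, limma adjusted p = 0.540), both still positive. TAF1C went to -0.12 (SE 0.083, limma adjusted p = 0.759). BOP1 lost its sign, at 0.0067 (SE 0.058, limma adjusted p = 0.988). The 5 genes with an unadjusted p under 0.05 were DDX21, WDR43, RRP12 (0.17), NOL6 (0.13) and MRTO4 (0.17).

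With the correction 38 of the 46 log2 fold changes were positive (82.6%), against 50.8% of all genes tested and 52.3% of the 12585 better-expressed ones. The median was 0.055, against 0.0035 over all genes tested and 0.0070 over the 12585. The sign turned for 16 genes, 13 of them from negative to positive, and for LYAR, POLR1C and RRN3 from positive to negative. By role, 12 of 12 small subunit factors and 15 of 17 large subunit factors were then positive, and 2 of 6 RNA polymerase I genes. The median corrected deviation of the 46 was -0.013 and -0.047 in DMSO and 0.019 and 0.050 under the compound. The gap between the nearest libraries of the groups was of about the size of the gaps within the groups.

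**Figure D4:**
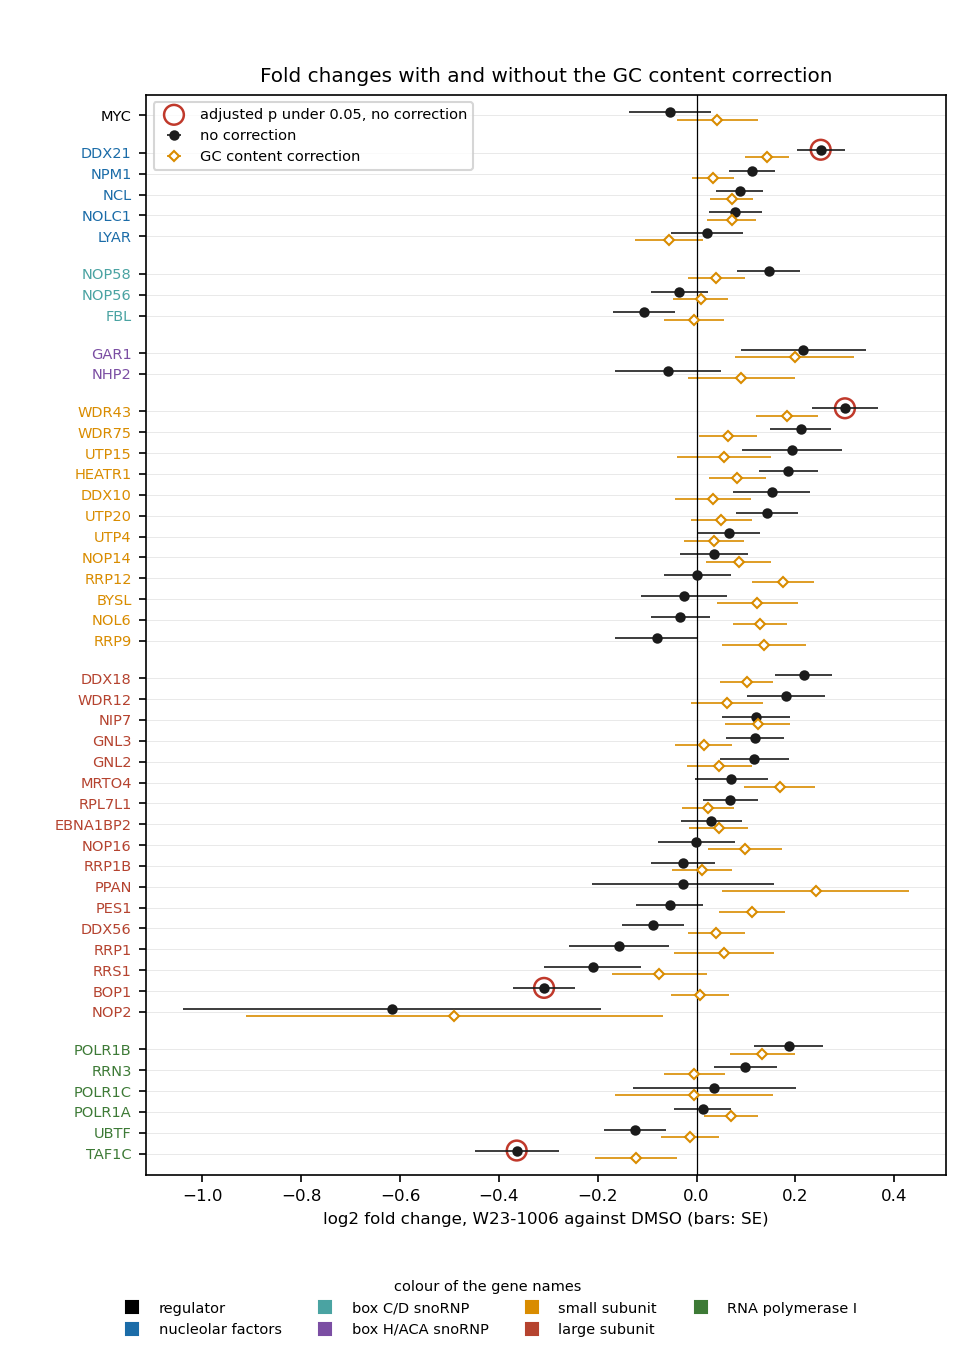
Log2 fold change of W23-1006 against DMSO with its SE for each gene, without correction (black) and after the correction for GC content (orange), with red rings on the 4 genes that passed without it. With the correction BOP1 moves to 0.0067, DDX21 to 0.14 and TAF1C to -0.12, and 38 of the 46 points lie right of 0.

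Of 143 other ribosome biogenesis genes 2 rose and 0 fell. That is 1.40% called, against 2.15% of all genes tested and 3.84% of the 12585 at a mean log2 value of at least 5. RIOK3, an atypical kinase linked to small subunit maturation, was at 1502 and 1477 in DMSO and 1770 and 1816 under the compound (0.27, SE 0.066, limma adjusted p = 0.0490). RSL1D1, a nucleolar protein with a ribosomal protein domain, was at 3738 and 3461 in DMSO and 4357 and 4197 under the compound (0.25, SE 0.059, limma adjusted p = 0.0441). Both were higher without overlap. Of the 143 genes 84 had a positive log2 fold change (58.7%, against 48.7% of all genes tested, median 0.050). Of the 12585 genes 6321 did. After the GC correction 99 of the 143 did (69.2%, against 50.8% of all genes tested and 52.3% of the 12585, median 0.041), and 0 passed.

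The smaller lists that follow stand beside 2.15% of all genes tested that passed. Further RNA polymerase I genes had 0 of 15 past the threshold, with the subunit genes TWISTNB at a log2 fold change of 0.29 and POLR2E at -0.21. Further snoRNP genes had 0 of 15, with TGS1 at 0.27 and ZNHIT6 at 0.20, and genes of the exosome and of trimming 0 of 17, with the helicase gene MTREX at 0.31 (limma adjusted p = 0.0511) and the nuclease gene DIS3 at 0.20. Of 7 genes of the 5S ribonucleoprotein and nucleolar stress 0 passed, with RPL5 at 0.12 and NOP53, which is also among the large subunit genes, at -0.21.

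Among the partners and antagonists of MYC 0 of 13 passed, with FBXW7, which marks MYC for degradation, at 0.38 (limma adjusted p = 0.0623) and MXD4 at -0.34 (limma adjusted p = 0.0673). Of 28 MYC targets outside ribosome biogenesis 0 rose and 4 fell (14.3%, against 1.46% of all genes tested that fell). The genes that fell over the whole table, 328, were all among the 12585 at a mean log2 value of at least 5. The 28 had a median level of 36.7 RPKM, against 1.56 over all genes tested. Their median log2 fold change was 0.037 and 16 were positive (57.1%, against 48.7% of all genes tested and 6321 of the 12585). FASN, fatty acid synthase, was at 22342 and 21850 in DMSO and 18914 and 14971 under the compound (-0.39, SE 0.077, limma adjusted p = 0.0235). SRM, spermidine synthase, was at 1955 and 1958 in DMSO and 1618 and 1437 under the compound (-0.36, SE 0.072, limma adjusted p = 0.0250). CAD, which starts pyrimidine synthesis, was at 4989 and 4803 in DMSO and 4216 and 4032 under the compound (-0.25, SE 0.055, limma adjusted p = 0.0363). All 3 were lower without overlap, as was TERT, the telomerase subunit, at 225 and 226 in DMSO and 124 and 130 under the compound (-0.82, SE 0.15, limma adjusted p = 0.0213). The GC content was 65.3% for FASN, 63.7% for SRM, 57.7% for CAD and 65.7% for TERT, and 0 of the 28 passed after the GC correction.

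The E-box CACGTG is a palindrome to which MYC with its partner MAX is known to bind, so a match on one strand is a match on both. It was searched in the 250 bases before each start in a prepared list of RefSeq promoters (GRCh38.p14). Of the 46 genes 38 matched an entry of that list, in 48 windows. BOP1, DDX18, MYC, NOLC1, NOP58, RRP12, RRP1B and RRS1 were missing from the list and were not searched. The letters lay in 6 of the 48 windows (12.5%), against 6.34% of all 35116 windows. The windows of all genes were not matched to the 46 in level or GC content. With 6 matches the difference cannot be read as an enrichment. The 6 matches are shown because this is the motif of the regulator in the set, with the motif in capitals and up to 12 bases on either side.
DDX21: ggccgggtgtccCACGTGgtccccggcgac
EBNA1BP2: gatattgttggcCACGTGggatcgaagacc
LYAR: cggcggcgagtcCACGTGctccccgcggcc
RPL7L1: cacttccacctaCACGTGagagccaaagcc
UTP20: cttttttccgtcCACGTGaccc
UTP4: agagcgcgcgcgCACGTGgggccggggc
In the same order they lie at chr10:68956604-68956633 (plus strand), chr1:43172790-43172819 (minus), chr4:4290068-4290097 (minus), chr6:42879488-42879517 (plus), chr12:101280083-101280104 (plus) and chr16:69132621-69132648 (plus). The distances before the listed start are 31, 237, 64, 116, 10 and 16 bases. The matches of DDX21, EBNA1BP2, LYAR and UTP4 fall in an exon of the gene in GENCODE, and those of RPL7L1 and UTP20 outside the gene. The log2 fold changes were 0.25 for DDX21, 0.030 for EBNA1BP2, 0.021 for LYAR, 0.069 for RPL7L1, 0.14 for UTP20 and 0.066 for UTP4, of which that of DDX21 passed. A match is a description of letters, not of binding.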

How the data were processed

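RNA of 4 libraries was selected by poly-T beads, per the labels' protocols. The tools and build named in the submitters' processing notes are GRCh38, HISAT2 2.0.5, featureCounts 1.5.0-p3, DESeq2 1.20.0, fastp and CASAVA, with no settings. The authors deposited a signal for each library, namely scaled read counts that are whole multiples (within 0.001) of a step close to 1. A check of recovered reads did not hold for every library, so no count model was fitted. Per the file headers the authors also gave a log2 fold change and p-values, used where named. Columns named treatment and control were taken as W23-1006 and DMSO.

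Genes with a mean of at least 1 were fitted with limma 3.58.1 in R 4.3.3 on log2(value + 1), which understates changes of low genes, with a mean-variance trend and Benjamini-Hochberg adjustment over 22486 genes. The GC correction removed from each library a loess curve (span 0.3) of log2 deviation on the GC content of the longest GENCODE 29 transcript, fitted on 12582 genes. All 46 genes have the same coordinates in GENCODE 29. The genes and lists were chosen with earlier results of these data known. Values per library are given for MYC, for genes past the threshold and for the 3 smallest p of each role; from other lists, genes past the threshold or else the 2 smallest p are named. Alternatives were pseudocounts of 0.1 and 5, other filters and scalings, limma-voom, no trend, a replicate block, GC and length corrections and leaving out each library. More reads lower the counting error only.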

Additional observations from a re-analysis of the deposited data

How the results depend on the processing

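Of the 22486 genes tested 484 passed, with 2 of the 46 genes higher and 2 lower. Of the 190 genes on the other lists 6 passed (3.16%, against 2.15% of all genes tested). Of these 6, 2 were ribosome biogenesis genes and 4 were MYC targets outside ribosome biogenesis. All of these counts went to 0 with a pseudocount of 0.1, with no filter on low values, with limma without its trend and without any one library; at an unadjusted p under 0.05 the genes then numbered 3515, 3568, 1866 and 1904 to 3112. Counts over all genes were 770 with a pseudocount of 5, 1475 with a filter of 5 RPM, 1133 over protein-coding genes, 826 with equal totals, 934 with limma-voom, 774 with a gene length correction and 21 with the GC correction. Genes of the other lists that passed numbered 18, 31, 25, 14, 23, 21 and 0 in the same order, and 13 with trimmed-mean scaling. With the filter of 5 RPM 1475 of 11097 genes passed. Of the 45 then tested among the 46, 5 were higher (WDR75, HEATR1 and DDX18 in addition) and 2 lower. Over protein-coding genes 1133 of 14608 passed, and 4 of the 46 were higher (WDR75 and DDX18 in addition) and 2 lower. In both settings the share of all genes that passed also rose, so the added calls cannot be read as a stronger result for the 46. With the GC correction 0 of the 46 were higher and 0 lower. The replicate block gave 1731 of the 22486 genes, with 6 of the 46 higher, 2 lower and 32 genes of the other lists. Joined to the GC correction it gave 200 of the 22486 genes, with 1 of the 46 higher (DDX21) and 0 lower. Replicate numbers share no stated source, and their deviations correlated at 0.054, so they were not taken as pairs. The median log2 fold change, 0.036, was 0.073 with the length correction and 0.031 to 0.090 without one library (0.061 without DMSO replicate 1 and 0.090 without W23-1006 replicate 1). With the GC correction, with or without the block, signs turned, among the 18 genes given with values per library, for MYC (0.042), NOP56 (0.0079), NHP2 (0.091) and BOP1 (0.0067); over the 46 they turned for 16 with the GC correction. With the length correction the sign of NHP2 turned (0.021). Without one library the range of these 18 spanned 0 for MYC (-0.12 to 0.010), NOP56 (-0.092 to 0.023) and NHP2 (-0.26 to 0.14). It moved by over 1.5 times for 7 more: GAR1 (0.0055 to 0.43), NOP58 (0.065 to 0.23), WDR12 (0.072 to 0.29) and NPM1 (0.066 to 0.16), lowest without W23-1006 replicate 2, POLR1B (0.087 to 0.29) and NCL (0.055 to 0.12), lowest without DMSO replicate 2, and FBL (-0.15 to -0.062), nearest 0 without DMSO replicate 1. The other 8 moved by less. The causes were not tested. The length correction and the median without NOP2 and PPAN (0.051) were chosen after the data were seen.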

Other observations

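GENCODE 29 places 24 small nucleolar or Cajal body RNA genes within 7 of the 46 genes, NCL, NOP56, NOP58, GNL3 and WDR43 among them. The deposited table lists 9 of these, and the highest value in any library was 13.9, for SNORD69 in GNL3. Selection by poly-T beads is not made for such RNAs. The table also lists 18 pseudogene copies of 7 of the 46 genes. The highest was NPM1P27, a processed copy of NPM1, at normalised read counts of 375 and 369 in DMSO and 411 and 463 under the compound. Reads of NPM1 and its copies may be split between them by the counting, so the NPM1 count is uncertain to that extent.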
